A study of Mus musculus with 8 samples.

Results

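The genes described here were 9 immediate early genes, namely Egr1, Egr2 and Egr3 of the EGR family, Nr4a1, Nr4a2 and Nr4a3 of the NR4A family, and Ier2, Ier3 and Srf, out of 24421 genes in the count table. They were taken by symbol from a list drawn up with the comparison of these same tumors known, so their differences between the groups are given as a description and not as evidence. All 9 were in the table and all 9 were among the 14468 genes with enough counts to be tested. The counts came from bulk RNA-seq of 8 MC38 tumors, 1 per mouse, with 4 photoconverted and 4 control tumors. MC38 cells derive from a colon carcinoma of the mouse, and the Kaede protein changes its fluorescence from green to red when lit with violet light. All mice were female B6 Kaede animals, 9 weeks old, that received 250000 MC38 cells, so the host cells of both groups carried Kaede whereas the injected cells came from the line. On day 10, at a diameter of about 5 mm, the tumors of the photoconverted group were exposed to 405-nm light for 3 min, the control tumors were left unexposed, and all 8 were collected 5 h after the exposure, which is the only time point.

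Immediate early genes are transcribed from factors that a resting cell already holds, so their RNA appears within minutes of a stimulus, without new protein synthesis, and usually fades again quickly. SRF binds the CArG box in many of their promoters, where ternary complex factors couple it to ERK signaling and myocardin-related factors to actin, and CREB couples other promoters to cAMP and calcium. EGR proteins are zinc finger transcription factors held in check by the corepressors NAB1 and NAB2, and NR4A proteins are nuclear receptors that act without a known hormone and are widely used as marks of recent antigen receptor signaling in T cells.

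The promoters of 3 of the genes are shown, Egr2 and Srf because they held a CArG box and Nr4a1 because it held TGCGTCA. The relation of these sequences to the levels was not tested. RefSeq windows of GRCm38.p6 were given for 6 of the 9 genes, and the 250 bases before the start of each, both strands, were searched for the CArG box, TGACGTCA (the full CREB element), TGACG (its core, also present in TGCGTCA as CGTCA, which is TGACG on the other strand), TGCGTCA, GCGTGGGCG (the EGR element) and TATAAA. Of all 32851 windows of the same length, 1.47% held a CArG box, 1.55% TGACGTCA, 17.8% TGACG, 1.75% TGCGTCA, 0.536% GCGTGGGCG and 12.4% TATAAA. In the Egr2 window, on the plus strand at chr10:67537619-67537868, capitals mark 1 CArG box that begins 72 bases before the start and TGACG on either strand 111 and 55 bases before it. For Nr4a1, at chr15:101266596-101266845 on the plus strand, capitals mark 4 copies of TGCGTCA that begin 235, 215, 71 and 42 bases before the start. The Srf window, at chr17:46556176-46556412 on the minus strand and ending at the first exon of the gene, has 2 CArG boxes in capitals, 82 and 62 bases before the RefSeq start.
Egr2 promoter: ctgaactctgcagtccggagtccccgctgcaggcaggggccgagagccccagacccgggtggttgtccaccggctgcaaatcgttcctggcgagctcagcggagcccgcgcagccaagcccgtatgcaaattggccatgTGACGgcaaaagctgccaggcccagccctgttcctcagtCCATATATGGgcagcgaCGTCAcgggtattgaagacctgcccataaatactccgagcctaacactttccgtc
Nr4a1 promoter: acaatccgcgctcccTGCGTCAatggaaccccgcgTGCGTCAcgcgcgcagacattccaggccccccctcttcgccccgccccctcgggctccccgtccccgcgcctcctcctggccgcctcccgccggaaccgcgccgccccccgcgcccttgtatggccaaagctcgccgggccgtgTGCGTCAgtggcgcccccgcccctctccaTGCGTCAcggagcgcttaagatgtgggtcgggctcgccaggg
Srf promoter: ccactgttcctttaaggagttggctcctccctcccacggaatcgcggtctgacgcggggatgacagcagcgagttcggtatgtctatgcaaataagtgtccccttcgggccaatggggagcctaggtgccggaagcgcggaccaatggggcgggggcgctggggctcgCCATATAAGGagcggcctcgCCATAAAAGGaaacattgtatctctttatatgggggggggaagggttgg
Both the Egr2 and the Nr4a1 windows lie inside the annotated span of their gene, and the Nr4a1 start used here is 12577 bases downstream of the gene's outermost one. Nr4a2 and Nr4a3 each held 4 copies of TGACG and no CArG box, and the Ier3 window held none of the motifs. The Nr4a2 start used here lies 8965 bases from the start of a transcript annotated as principal. TGACGTCA and GCGTGGGCG were found in none of the 6 windows. A match is only a run of letters and was not tested as a binding site.

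Total counts per tumor were 16735293 to 35844417 in the photoconverted group (median 26418352) and 12576615 to 29439901 in the control group (median 21776798). Rn45s, the precursor of ribosomal RNA, took 4.14%, 9.65%, 4.60% and 21.9% of the counts in the photoconverted group (tumors 1 to 4) and 2.70%, 35.7%, 4.70% and 23.2% in the control group (tumors 1 to 4). Photoconverted tumor 4 and control tumors 2 and 4 thus stood apart from the other 5 and also had the lowest totals, and the fold changes of the 9 genes and the counts of the gene lists are therefore given also over the other 5. The 8 markers of colon epithelium summed to 3.35 to 6.19 CPM in every tumor, with Cdx2 at 0 in all 8, Krt8, Krt18 and Epcam under 1 CPM, Krt19 and Vil1 up to 1.14 and 1.65 CPM, and Cdh1 at 0.793 to 3.63 CPM, where CPM is the unit of all levels below and a read count scaled to its library size with TMM factors. In bulk tumors, a lower level from fewer cells of a type cannot be told apart from less RNA per cell. In edgeR's quasi-likelihood test, 0 of 14468 genes (0%) passed an adjusted p of 0.05 (24 by DESeq2 and 0 by limma), 322 had an unadjusted p under 0.05, of which 239 (1.65%) were higher in photoconverted tumors, and 99 genes (0.684%) were higher in every photoconverted tumor than in every control tumor. None of the 9 genes passed the adjusted threshold, 2 of them had an unadjusted p under 0.05, and in all 9 the groups overlapped.

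Egr1, on chromosome 18 (chr18:34859823-34864984, plus strand), varied most among the 9 genes, its highest level being 15.4 times its lowest. Its level was 149, 133, 235 and 15.2 CPM in photoconverted tumors 1 to 4 and 15.6, 16.9, 20.6 and 31.6 CPM in control tumors 1 to 4. Photoconverted tumors 1 to 3 lay far above every control tumor, the lowest of them 4.22 times the highest control, whereas photoconverted tumor 4 was at 0.72 times the control mean, level with control tumor 1 within counting error. Counting error was small beside these gaps, since Egr1 had 223 reads in photoconverted tumor 4 (95% Poisson interval 13.3 to 17.4 CPM) and 158 to 579 in the control tumors. The group means were 133 ± 90.3 and 21.2 ± 7.28 CPM (SD, n = 4 each), and the fitted log2 fold change of photoconverted over control was 2.65 (SE 0.65). By size of unadjusted p Egr1 ranked 17 and by fold change 9 among all genes tested.

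The Egr1 difference depended on photoconverted tumor 4. Without that tumor the log2 fold change was 3.02 (SE 0.29), and in the 5 low-Rn45s tumors (share under 10%) it was 3.26 (SE 0.28), with 149, 133 and 235 CPM against 15.6 and 20.6 CPM. Its adjusted p by edgeR was 0.999 over all 8 tumors, 0.0286 without photoconverted tumor 4 and 0.0101 in the 5 tumors, where 0.0745% and 0.243% of all genes were called higher. Over all 8 tumors the Wald test of DESeq2 called it at an adjusted p of 0.0188, with 0.138% of genes called higher. Within the control group the high-Rn45s tumors 2 and 4 averaged 1.34 times the level of tumors 1 and 3. That ratio came from control tumor 4 (31.6 CPM), since control tumor 2 (16.9 CPM) lay between tumors 1 and 3.

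Summed neutrophil and skeletal muscle markers split the photoconverted tumors as Egr1 did, although muscle in tumor 1 was just above the highest control sum. Among the control tumors neither list followed Egr1. The summed level of 7 neutrophil markers was 66.3, 79.6, 115 and 21 CPM in photoconverted tumors 1 to 4 and 18.7 to 30.6 CPM in the control tumors, and all 7 had a higher fitted level in the photoconverted group. For 10 skeletal muscle markers, all 10 fitted higher, the sums were 448, 735, 1464 and 195 CPM against 196 to 439 CPM, the lowest control sum being that of control tumor 4, which had the most Egr1 of its group. Adipocyte markers (4 of 4 tested fitted higher) summed to 17.2, 26, 37.2 and 10.2 CPM against 10.3 to 21.1 CPM, and skin keratinocyte markers (3 of 3) to 2.25, 17.4, 19.8 and 2.39 CPM against 1.54 to 3.91 CPM. For adipocyte and keratinocyte markers, photoconverted tumor 1 thus lay within the control range, unlike for Egr1. Endothelial markers (6 of 6) overlapped more, at 89.9 to 175 against 81.5 to 139 CPM. No marker of these lists was at 0 in every tumor, and their part in the Egr1 level was not tested. Macrophage markers (526 to 1117 against 387 to 968 CPM) and T cell markers (16.9 to 36 against 9.83 to 34.5 CPM) overlapped between the groups.

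Egr2 (chr10:67535475-67542188), a zinc finger factor known from myelination and from T cell tolerance, did not follow Egr1. It measured 3.85, 5.21, 6.26 and 2.12 CPM in photoconverted tumors 1 to 4 and 6.17, 3.85, 4.73 and 1.34 CPM in control tumors 1 to 4. The lowest tumor of each group was its tumor 4, and the ranges overlapped over most of their length. The log2 fold change was 0.11 (SE 0.46) over all 8 tumors and -0.10 (SE 0.25) in the 5 with a low Rn45s share. Egr3 (chr14:70077203-70082614), its close relative, was the gene with the fewest reads of the 9, 25 to 95 per tumor. Its levels were 2.38, 2.18, 2.72 and 1.98 CPM against 2.08, 3.00, 3.13 and 1.53 CPM, with a log2 fold change of -0.06 (SE 0.27) over all 8 tumors and -0.10 (SE 0.27) in the 5. At such counts the 95% Poisson interval of a single tumor spanned, in control tumor 2, 1.99 to 4.33 CPM, so that differences among the Egr3 values were mostly not detectable at this depth.

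The corepressors of the family did not pass the adjusted threshold in either fit. Nab1 had a log2 fold change of 0.37 (SE 0.22) and Nab2 of 0.22 (SE 0.16), with overlapping groups, against 0.27 (SE 0.13) and 0.54 (SE 0.11) in the 5 low-Rn45s tumors, and Egr4 had too few counts to be tested. Because Egr1 varied so much more than Egr2 and Egr3, its share of the family's summed level per kilobase was 95.2%, 93.6%, 95.5% and 76% in the photoconverted group (tumors 1 to 4) and 60.3%, 67.5%, 68.6% and 90.5% in the control group (tumors 1 to 4). Control tumor 4 thus came nearest to the makeup of the 3 high-Egr1 tumors, with the highest Egr1 of its group beside the lowest Egr2 and Egr3 of all 8 tumors.

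**Figure D1:**
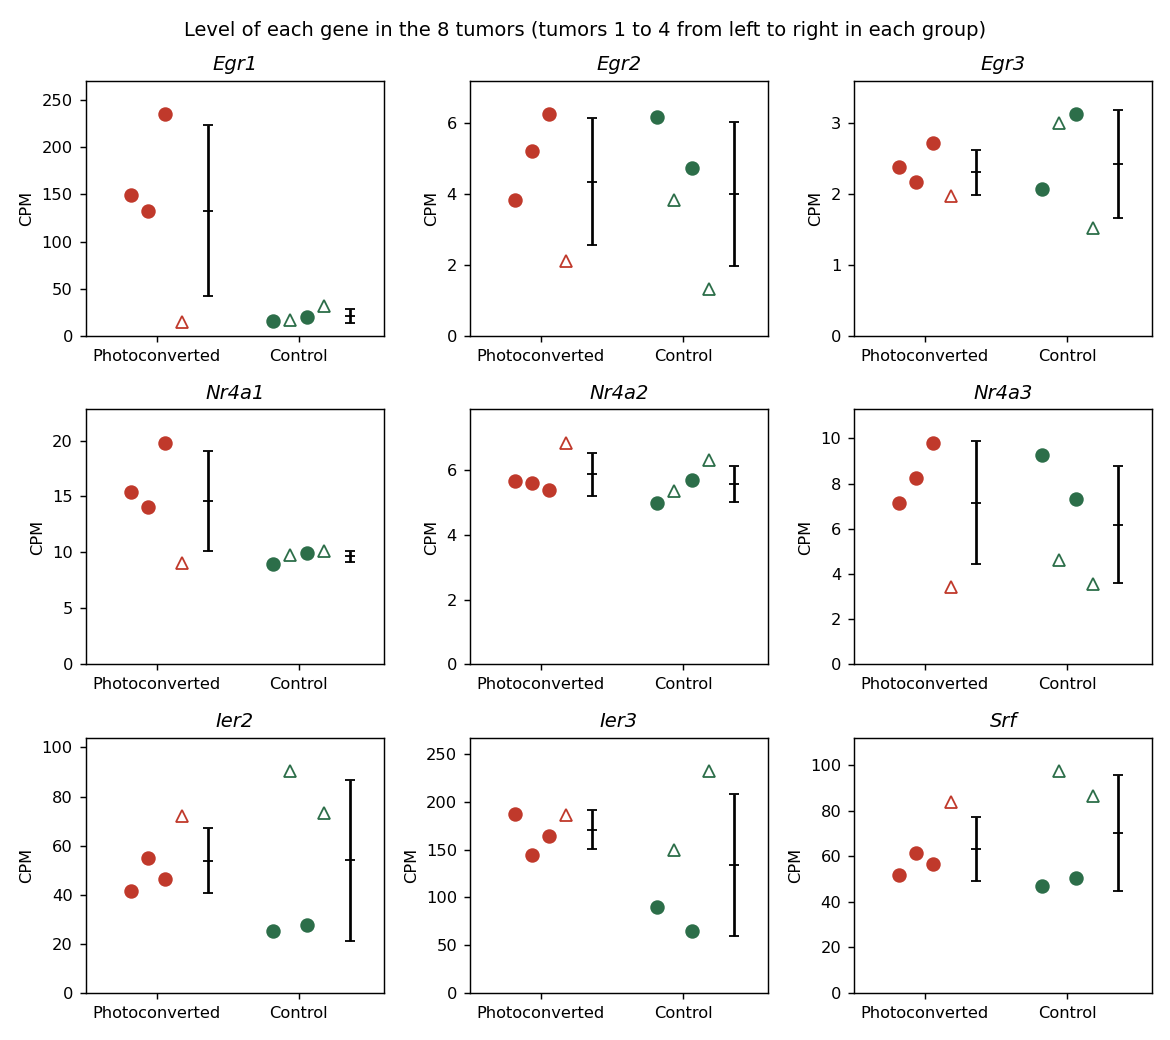
Level of each of the 9 genes in CPM (y axis, from 0, a separate scale per gene) in the 4 photoconverted (red) and 4 control (green) tumors. Filled circles are tumors with an Rn45s share under 10%, open triangles those with 10% or more, and black bars show mean ± SD (n = 4); Egr1 and Nr4a1 are high in photoconverted tumors 1 to 3 and at the control level in tumor 4.

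Nr4a1 (chr15:101254269-101274795), which encodes NUR77, was the member of the receptor family whose levels ran parallel to Egr1. It measured 15.4, 14.1, 19.8 and 9.02 CPM in photoconverted tumors 1 to 4 and 8.97, 9.74, 9.92 and 10.1 CPM in control tumors 1 to 4. Photoconverted tumors 1 to 3 were all above the control tumors, the lowest at 1.40 times the highest control, and photoconverted tumor 4 fell within the narrow control range at 0.932 times the control mean. Group means were 14.6 ± 4.44 and 9.67 ± 0.491 CPM (SD, n = 4 each), and the log2 fold change was 0.60 (SE 0.22). In the 5 tumors with a low Rn45s share it was 0.80 (SE 0.18), with an adjusted p of 0.184 by edgeR, and without photoconverted tumor 4 it was 0.76 (SE 0.17).

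The other NR4A genes showed no such split. Nr4a2 (chr2:57106830-57124003), which encodes NURR1, a factor required by dopamine neurons, was the steadiest of the 9, between 5.36 and 6.83 CPM in photoconverted and between 4.97 and 6.29 CPM in control tumors. Its log2 fold change was 0.07 (SE 0.17) over all 8 tumors and 0.06 (SE 0.17) in the 5. Nr4a3 (chr4:48045153-48086447), which encodes NOR1, measured 7.16, 8.24, 9.81 and 3.42 CPM in photoconverted and 9.25, 4.60, 7.32 and 3.54 CPM in control tumors, a log2 fold change of 0.20 (SE 0.38). The low values of Nr4a3 were those of the 3 tumors with a high Rn45s share, of either group, and among the other 5 its mean in photoconverted tumors was 1.01 times that in control tumors. Rxra and Rxrb, retinoid X receptors that pair with Nr4a1 and Nr4a2, had log2 fold changes of -0.19 (SE 0.16) and -0.14 (SE 0.25), or -0.21 (SE 0.14) and 0.01 (SE 0.15) in the 5, and Rxrg had too few counts.

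The levels of Ier2 and Srf were highest in the tumors with a high Rn45s share. Ier2 (chr8:84661331-84662852), which encodes a small nuclear protein, measured 41.7, 55.1, 46.3 and 72 CPM in photoconverted tumors 1 to 4 and 25.1, 90.3, 27.5 and 73.3 CPM in control tumors 1 to 4. Its highest values were those of the 3 high-Rn45s tumors, and its log2 fold change over all 8 tumors was 0.00 (SE 0.41). In the 5 low-Rn45s tumors the groups did not overlap, at 41.7 to 55.1 against 25.1 to 27.5 CPM, as they did not for 14.2% of all genes tested there, in the same direction, with a log2 fold change of 0.86 (SE 0.14) and an adjusted p by edgeR of 0.0672, short of the threshold.

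Ier3 (chr17:35821684-35822923), which encodes the stress-responsive survival protein IEX-1, had values of 187, 144, 164 and 186 CPM in photoconverted tumors 1 to 4 and 89.7, 150, 64.6 and 232 CPM in control tumors 1 to 4. Photoconverted tumors were close together, whereas the control tumors ranged from the lowest to the highest of all 8, with means of 171 ± 20.6 and 134 ± 74.4 CPM (SD, n = 4 each). The log2 fold change was 0.35 (SE 0.35) over all 8 tumors and 1.10 (SE 0.17) in the 5 low-Rn45s tumors, where the adjusted p by edgeR was 0.0631. Single control tumors moved the Ier3 value, as the log2 fold change was 0.12 without control tumor 3 and 0.75 without control tumor 4.

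Srf (chr17:46548329-46556175), the gene of the CArG-binding factor itself, measured 51.7, 61.3, 56.7 and 83.6 CPM in photoconverted tumors 1 to 4 and 46.8, 97.3, 50.3 and 86.5 CPM in control tumors 1 to 4. Its 3 highest values were again those of the high-Rn45s tumors, and within the control group those tumors averaged 1.89 times the other control tumors. The corresponding ratios were 3.11 for Ier2 and 2.47 for Ier3, against 1.05 for Nr4a1, 0.477 for Egr2 and 0.491 for Nr4a3. The log2 fold change of Srf between the groups was -0.15 (SE 0.26) over all 8 tumors and 0.22 (SE 0.11) in the 5. Fibroblast markers summed to 12478 CPM in control tumor 2, the tumor with the most Srf, and to 3264 to 4700 CPM in the other 7 tumors. That sum was carried by the collagen genes Col1a1 (4607 CPM), Col1a2 (2585 CPM) and Col3a1 (5063 CPM), whereas Dcn (40.2 CPM), Lum (9.63 CPM) and Pdgfra (93.4 CPM) were not at their highest there, and the part of these markers in the Srf level was not tested.

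**Figure D2:**
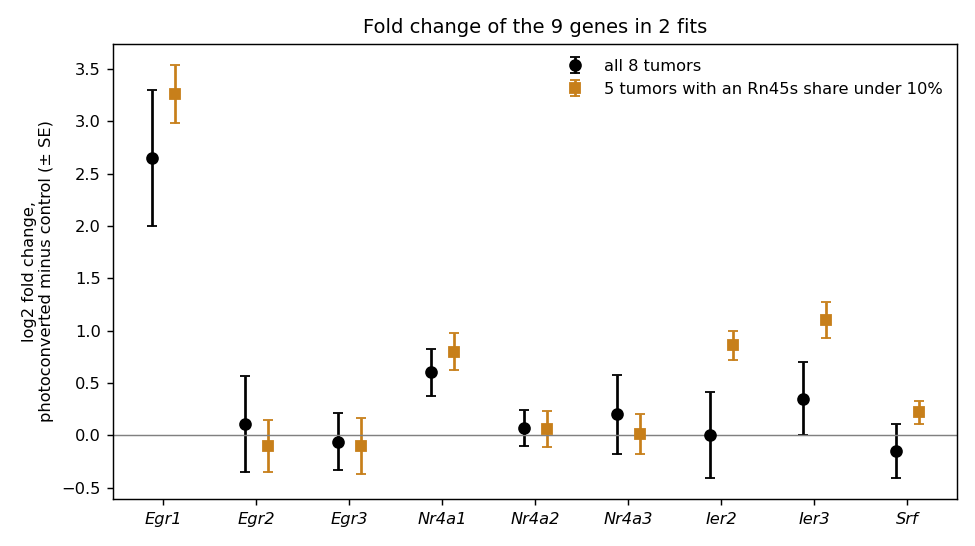
Log2 fold change of photoconverted over control tumors (y axis, bars ± SE) for the 9 genes, fitted by edgeR over all 8 tumors (black) and over the 5 low-Rn45s tumors (orange). Egr1 lies highest in both fits, Ier2 moves from 0.00 to 0.86 and Ier3 from 0.35 to 1.10, and Egr2, Egr3, Nr4a2 and Nr4a3 lie near 0 in the 5 tumors.

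Across the 8 tumors the Pearson r of log2 CPM with the log2 Rn45s share was 0.99 for Srf, 0.93 for Ier2, 0.57 for Nr4a2, 0.54 for Ier3, -0.23 for Egr3, -0.36 for Egr1, -0.38 for Nr4a1, -0.69 for Egr2 and -0.86 for Nr4a3. Leaving out the 2 tumors with the most extreme shares gave 0.97 for Srf, 0.87 for Ier2 and -0.83 for Nr4a3 (n = 6). Such values were common in these libraries, since 31.5% of all tested genes had an r at least as far from 0 as that of Nr4a3 and 16.2% as far as that of Ier2, 66.7% as far as that of Ier3, but only 1.18% as far as that of Srf. These correlations describe 8 libraries that differ in depth and Rn45s share together, and the part of the Rn45s share in the levels was not tested.

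**Figure D3:**
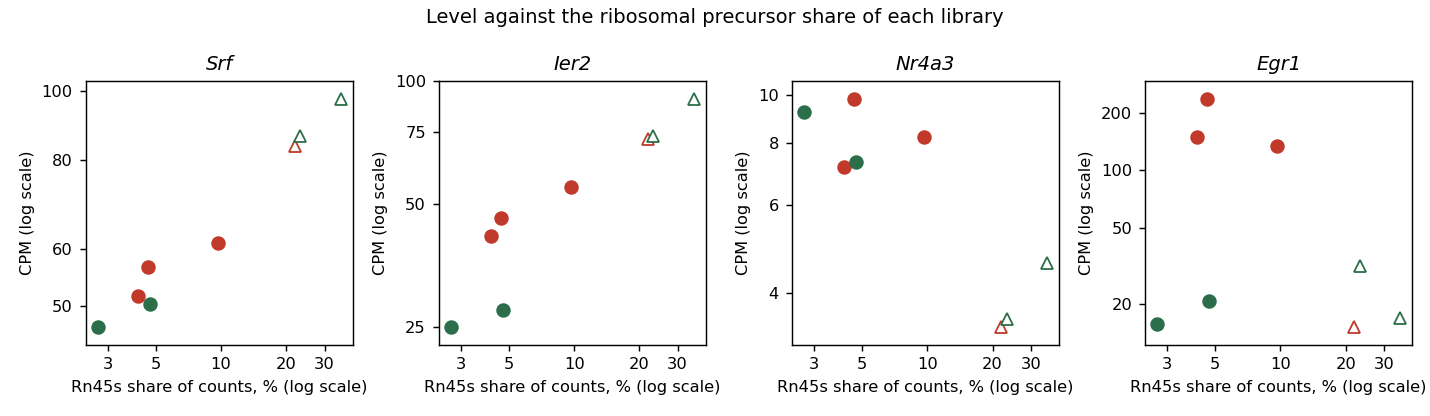
Level in CPM (y axis, log scale) of Srf, Ier2, Nr4a3 and Egr1 against the Rn45s share of counts in percent (x axis, log scale) for the photoconverted (red) and control (green) tumors, with open triangles for shares of 10% or more. Srf and Ier2 are highest and Nr4a3 lowest in the 3 tumors at the right, whereas Egr1 separates photoconverted tumors 1 to 3 from the other 5.

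The 9 genes did not vary as 1 group. Egr1 and Nr4a1 had an r of 0.98 over the 8 tumors, 0.95 for the deviations from the group means and 0.98 without the 2 tumors farthest from the median Egr1 level (n = 6). Spearman's rho of the pair was 0.98 (n = 8), and the 8 tumors fell into 3 with a high and 5 with a low Egr1 level. The 2 tumors left out were photoconverted tumors 1 and 3. Photoconverted tumor 2 alone thus stood high among the 6, and the r over 6 tumors rests largely on it. Ier2 and Srf (r = 0.95) also ran together, as did Egr2 and Nr4a3 (r = 0.92), with 0.99 and 0.85 after the same omission for Ier2 and Egr2. Ier2 (0.93) and Srf (0.99) both had a high r with the Rn45s share, and Egr2 (-0.69) and Nr4a3 (-0.86) a negative one. How common such r values are among all pairs of genes was not counted. Nr4a3 ran opposite to Srf (r = -0.86), and Egr1 was close to unrelated to Egr3 (r = 0.09) and Ier2 (r = -0.04). The r of 0.76 between Ier2 and Ier3 rested on 2 tumors, since without them it was 0.04. All of these points share the library and its depth, and no test was made of them.

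Compared per kilobase of exon, the mean log2 levels of the genes had the same order in both groups, although the arithmetic mean of Egr1 was above that of Srf in photoconverted tumors (29.7 against 21.9 CPM per kilobase) and below it in control tumors (4.72 against 24.3). Ier3 was highest, at 135 ± 47.9 CPM per kilobase (SD, n = 8), followed by Ier2 (35.4 ± 15.2), Srf (23.1 ± 6.71), Egr1 (17.2 ± 18.8), Nr4a1 (3.46 ± 1.12), Nr4a2 (1.41 ± 0.145), Egr2 (1.23 ± 0.524), Nr4a3 (1.11 ± 0.42) and Egr3 (0.539 ± 0.123). Over 13899 genes with a length, Ier3 was at percentile 95 to 98.3 in the control tumors, while Egr1 was at percentile 38.9 to 57.5 in them and at 40.1 to 94.2 in photoconverted tumors. Egr1 came right after Ier3 in photoconverted tumors 1 and 3, after Ier3 and Ier2 in photoconverted tumor 2, and after Ier3, Ier2 and Srf in the other 5 tumors.

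Neighbours in that order were compared within tumors by a two-sided exact sign-flip permutation test, adjusted over the 8 neighbouring pairs. The order came from the same 8 tumors, so it set the sign of each mean difference, and the test bears only on consistency among tumors. For 5 pairs the higher gene was higher in 8 of 8 tumors (exact p = 0.00781, the smallest possible, adjusted p = 0.0125), with mean log2 differences of level of 1.95 for Ier3 over Ier2, 0.54 for Ier2 over Srf, 1.53 for Egr1 over Nr4a1, 1.23 for Nr4a1 over Nr4a2 and 0.95 for Nr4a3 over Egr3. Srf and Egr1 did not differ beyond their spread (1.21 ± 1.84, SD, adjusted exact p = 0.146), nor did Nr4a2 and Egr2 (0.33 ± 0.88, adjusted exact p = 0.383) or Egr2 and Nr4a3 (0.11 ± 0.31, adjusted exact p = 0.383). With the longest transcript as the length, the Ier2 and Srf pair and the Egr1 and Nr4a1 pair no longer passed.

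**Figure D4:**
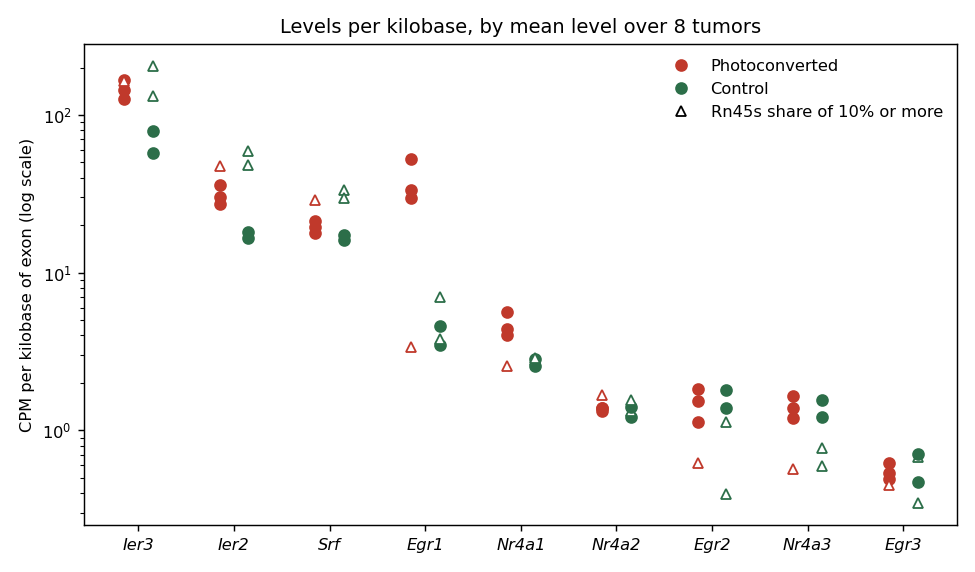
Level per kilobase of exon (y axis, CPM per kilobase, log scale) of the 9 genes in order of their mean over 8 tumors, for photoconverted (red) and control (green) tumors, with open triangles for an Rn45s share of 10% or more. Egr1 spans 3.4 to 52.3 and reaches the Ier2 and Srf levels only in photoconverted tumors 1 to 3.

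The genes around these factors were read from lists grouped by role. Among the cofactors of SRF, 0 of 5 tested genes had an unadjusted p under 0.05 and the log2 fold changes were small: 0.04 for Elk1, 0.07 for Elk3 and 0.03 for Elk4, ternary complex factors downstream of ERK, and -0.09 for Mkl1 and 0.04 for Mkl2, the actin-regulated coactivators. Of 14 cytoskeletal targets of SRF and its coactivators, 12 had a fold change above and 2 below 0, with a median of 0.12 against -0.01 over all genes tested, and 2 had an unadjusted p under 0.05. Of all genes tested, 1.65% were higher at such a p. Calponin (Cnn1) was the gene of that list whose groups were apart, as they were in the same direction for 0.684% of all genes tested. It measured 0.547 to 0.906 against 0 to 0.427 CPM, with a log2 fold change of 1.50 (SE 0.50). These levels were near the floor, with 0 CPM in control tumor 2, so few reads separated the groups. Fhl2 (0.30, SE 0.13) was the other of the 2, and Tpm1 was at 0.18 (SE 0.13). In the 5 low-Rn45s tumors the SRF cofactors had a median of -0.07, none of them reached an unadjusted p of 0.05, and all 14 targets were above 0 with a median of 0.25, 5 of them at such a p, where 6.31% of all genes were higher at that p and the median of all genes was 0.00.

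Upstream of these promoters, the ERK cascade showed 6 of 12 genes above and 6 below 0 (median -0.01), with Map2k1 at -0.23 (SE 0.19) and Rps6ka1 at -0.14 (SE 0.14). In the CREB pathway 7 of 10 genes were above 0 (median 0.05), led by the phosphodiesterases Pde4b (0.78, SE 0.38) and Pde4d (0.33, SE 0.26) and by Crem (0.61, SE 0.36), a cAMP-responsive factor. No gene of either list had an unadjusted p under 0.05. In the 5 low-Rn45s tumors the medians were -0.04 for the ERK cascade, with 0 genes at such a p, and 0.20 for the CREB pathway, with 2 higher and 1 lower. Of all genes tested there, 6.31% were higher at that p, and their median was 0.00.

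Other immediate early genes lay higher than these regulators. Of 9 AP-1 family genes, 8 were above 0 with a median log2 fold change of 0.46, and 3 had an unadjusted p under 0.05. Atf3, a stress-induced factor, measured 70.6, 43.8, 96.7 and 18 CPM in photoconverted and 25.4, 14.8, 17.5 and 20.9 CPM in control tumors (log2 fold change 1.54, SE 0.44), and Fosb (1.33, SE 0.54) and Fosl2 (0.40, SE 0.13) were the other 2. Of 21 immediate early genes outside AP-1, 18 were above 0 with a median of 0.22 and 4 had an unadjusted p under 0.05. Over all genes tested the median was -0.01, and 1.65% were higher at such a p. Zfp36, which destabilizes cytokine mRNAs, measured 53.6, 54.1, 81.6 and 32.6 CPM in photoconverted and 28.9, 38.2, 29.8 and 28.9 CPM in control tumors (0.82, SE 0.25). Csrnp1 (0.86, SE 0.31) and Btg2, an antiproliferative gene (0.68, SE 0.29), followed.

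Photoconverted tumor 4 was the lowest of its group for Atf3, Zfp36, Fosb, Csrnp1 and Btg2, as it was for Egr1 and Nr4a1. In the 5 low-Rn45s tumors the median was 1.05 for the AP-1 family, with 9 of 9 genes higher at an unadjusted p under 0.05, and 0.57 for the genes outside AP-1, with 12 of 21 higher and 1 lower at such a p. Of all genes tested there, 6.31% were higher at that p, and their median was 0.00. Known targets of EGR factors divided evenly over all 8 tumors, with 6 of 12 above 0, 6 below 0 and a median of -0.01. Ptgs2, the inducible cyclooxygenase, was at 112, 47.9, 106 and 40.5 against 59.8, 21.3, 34.7 and 38.1 CPM (0.99, SE 0.40), Cd44 was at 0.33 (SE 0.21) and the heparanase gene Hpse at -0.23 (SE 0.11), and in the 5 low-Rn45s tumors 10 of the 12 were above 0 with a median of 0.17. No gene of the lists, Egr1 included, passed the adjusted threshold by edgeR over all 8 tumors. Only Egr1 passed it by DESeq2, and by edgeR without photoconverted tumor 4. In the 5 low-Rn45s tumors edgeR called Csrnp1 (1.65, SE 0.16, adjusted p 0.0115) and Maff, a small AP-1 partner (1.21, SE 0.11, adjusted p 0.0101), beside Egr1. Of all genes tested there, 0.243% were called higher.

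**Figure D5:**
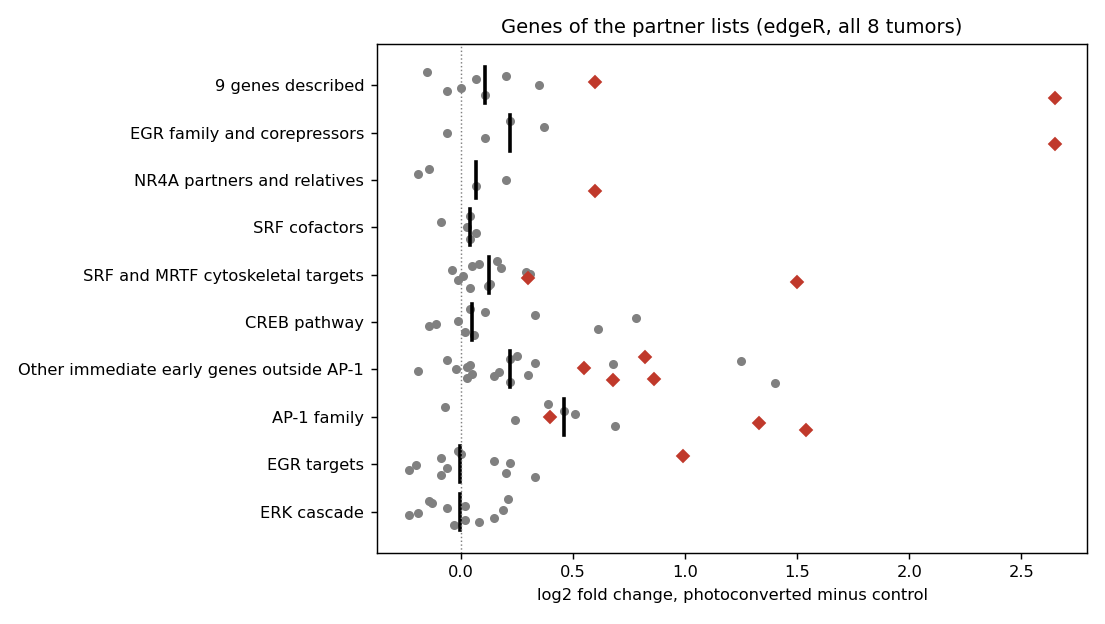
Log2 fold change of photoconverted over control tumors (x axis, edgeR, all 8 tumors) for each tested gene of the lists (y axis), with the list median as a black line and genes with an unadjusted p under 0.05 as red diamonds. The AP-1 family has the highest median of these lists over all 8 tumors, 0.46, and the ERK cascade and EGR targets are centered at -0.01.

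The genes most like the mean pattern of the 9, among 13302 candidates, were Nfkbia (r = 0.99), which encodes the NF-kB inhibitor IkBa, the phosphatase gene Dusp2 (0.98), Jun (0.97), Celsr2 (0.97) and Mxd1 (0.97), over 8 tumors. Without the 2 tumors farthest from the median of the mean pattern the values were 0.96, 0.95, 0.92, 0.90 and 0.98 (n = 6). By deviations from the group means the 5 most alike were Nfkbia (0.98), Chd7 (0.98), Nol3 (0.97), Rab20 (0.96) and Stat5a (0.96), so only Nfkbia was named by both measures. The genes most like Egr1 alone, a choice made after its values were seen, were Cyr61, Rcan1, Hsph1, Fosl2 and Hspa1b, all with an r of 0.98 among 13310 candidates (0.94 to 0.98 without 2 tumors), with Nr4a1 next at rank 6. For these 5 genes the tumors left out were photoconverted tumors 1 and 3, so the values without them rest largely on photoconverted tumor 2.

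These genes were chosen by their r with Egr1 over the same 8 tumors. Their split of the photoconverted group thus follows from that choice and is a description only. Cyr61, which encodes a matricellular protein, measured 311, 194, 404 and 54.1 CPM in photoconverted and 38.2, 52.2, 45.6 and 82.8 CPM in control tumors. The heat shock gene Hspa1b measured 4517, 3336, 6681 and 119 CPM in photoconverted and 60.6, 68.8, 79.8 and 623 CPM in control tumors. In both, as in Egr1, photoconverted tumors 1 to 3 were the highest of the 8 and control tumor 4 was the highest of its group.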

How the data were processed

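Total RNA of 8 tumors was sequenced in bulk (library kit: TruSeq in the methods of the study, SMARTER in the sample labels). The submitters' processing notes name CASAVA, FastQC, Trim Galore, HISAT2, featureCounts, DESeq2 and the mm10 build; their versions and the annotation are not given in the sources used here. The authors deposited raw counts of reads per gene symbol for 24421 genes and, for 19823 genes, a normalized signal equal to the counts divided by DESeq2 size factors (0.416 to 1.77); genes left out of it had at most 1 count. Groups and replicate numbers come from the labels, which state 4 mice per group.

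Counts were tested with edgeR 4.0.16 in R 4.3.3 (TMM, filterByExpr with a minimum count of 10, glmQLFit and glmQLFTest, Benjamini-Hochberg adjustment over 14468 genes, threshold 0.05). Log2 CPM used a prior count of 2. DESeq2 1.42.0 and limma 3.58.1 (log2 of the normalized values + 1) were alternatives, as were other size factors, no filter, robust dispersion, Rn45s left out or as a covariate, the 5 low-Rn45s tumors (share under 10%), and leaving out each tumor. Counts and medians of the gene lists in the 5 tumors were added after the data were seen. Fold changes are photoconverted over control. Poisson intervals (95%) cover counting error only. Gene positions and exon lengths are from GENCODE M21 on GRCm38, the build of the files, and promoters from RefSeq. Of all members, only Srf overlapped other annotated genes (Gm26904 on the opposite strand and Mir6976), without shared exons. The fits were checked on simulated counts in which tumors of a group differed only by scaled library size and random spread. That check does not cover differences linked to the Rn45s share.

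The 9 genes and all lists were chosen with earlier results of these data known. Named were all 9, every gene of the EGR, NR4A and SRF cofactor lists, the 3 lowest p of each other list (1 gene of these is not reported here), and the 5 genes most like the members by each of 2 measures; Cyr61, Rcan1, Hsph1, Hspa1b and Maff were named after their values were seen, as were Cnn1 as the gene with groups apart and the markers. No library was a copy of another of its group, since counts differed by a chi-square of at least 23.8 per degree of freedom.

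The labels number the tumors 1 to 4 in each group. Deviations from the group means of same-numbered tumors correlated at 0.107 to 0.623 (mean 0.433), against -0.134 on average for different numbers. Deviations cancel out within a group, so a negative mean for different numbers follows from a positive one for the same number. The r of 0.623 was that of the tumors numbered 4, which both had a high Rn45s share (21.9% and 23.2%). The numbers were taken as pairs only in an alternative with the number as a block. The labels do not say what a number marks, and 5 of 8 tumors correlated best with their own number.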

Additional observations from a re-analysis of the deposited data

How the results depend on the processing

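Over 162 values of the 9 genes under the alternatives, 136 kept their direction and side of the threshold, 3 (all Egr1) passed it and 23 reversed, 12 of them of Ier2 and 11 of other genes. edgeR called 0 genes over all 8 tumors; DESeq2 called 24 and edgeR in the 5 low-Rn45s tumors (share under 10%) called 42, and leaving out 1 tumor gave 0 to 11 genes, with 11 only without photoconverted tumor 4. Of the 9 genes, 0 were called over all tumors, 1 by DESeq2, 1 in the 5 tumors and 0 to 1 leaving out 1 tumor, each time Egr1. Of the list genes, 2 other than Egr1 were called in the 5 tumors. The Egr1 log2 fold change was 2.18 to 3.26 over all alternatives.

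With the replicate number as a block, edgeR called 0 genes, the Egr1 log2 fold change was 2.41 (SE 0.73, adjusted p 0.689), and the pairing changed no call. Reversed values were small for Egr2, Egr3, Nr4a2 and Srf, but reached 0.86 (SE 0.14) for Ier2. For Egr2 the log2 fold change was -0.10 in the 5 tumors and -0.18 to 0.40 leaving out 1 tumor. For Egr3 it was 0.05 with the replicate block and Rn45s share, and -0.23 to 0.10 leaving out 1 tumor, and for Nr4a2 the latter range was -0.01 to 0.13. Srf was at 0.22 in the 5 tumors, at 0.00 with the Rn45s share as a covariate, at 0.02 with the replicate block and Rn45s share, and at -0.31 to 0.05 leaving out 1 tumor. Ier2, just below 0.00 over all tumors, took no stable sign, at 0.19 by limma and with the replicate block, 0.00 with DESeq2 size factors or Rn45s left out, 0.01 with no filter, 0.35 with the Rn45s share as a covariate, 0.39 with the replicate block and Rn45s share, 0.86 in the 5 tumors and -0.24 to 0.36 leaving out 1 tumor. The cause of these changes was not tested.

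Of neighbouring genes by level per kilobase, 5 pairs differed, 3 with the longest transcript as the length, and 5 to 6 leaving out 1 tumor. Of the 5 genes most like the 9, 1 was also named by deviations from the group means and 1 by Spearman's rho. No tumor stood apart within its group by Dixon's criterion in 18 groups of 4 values. Counts of 22 to 216 for Egr2 and 25 to 95 for Egr3 limit their precision, and 4 tumors per group limit that of Egr1 and Nr4a1.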
